A study of Mus musculus with 6 samples.

Results

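Aminoacyl-tRNA synthetases are the enzymes that join each amino acid to its transfer RNA. The deposited table held 56748 genes. By gene symbol, 38 protein-coding genes in it were taken as this family, 21 for the cytosol and 17 for mitochondria. The mitochondrial ones were those whose symbol ends in 2, except Tarsl2, which is cytosolic. All 38 passed the filter of a mean of at least 1 normalized read. The rule used symbols only, and the family was picked with earlier results of these data known.

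The libraries were ribosome profiling (Ribo-seq) of mouse Lin-c-Kit+ cells, which the labels call hematopoietic stem cells. There were 3 libraries from Mov10 KO mice and 3 from WT mice, and both groups were taken 12 days after 4.5 Gy of ionizing radiation, so no unirradiated cells are compared here. Mov10 encodes an RNA helicase. The sources used here do not give the strain, the age, the kind of Mov10 allele, or whether a replicate stands for an animal of its own. The p-values therefore describe the spread between these libraries, part or all of which may be technical.

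A synthetase activates its amino acid with ATP and loads it onto the matching transfer RNA, which then brings it to the ribosome. Cells keep separate sets of these enzymes for the cytosol and for mitochondria, all encoded in the nucleus, and the genes Gars and Kars each supply both compartments. In the cytosol a number of the enzymes sit together in the multisynthetase complex, held by scaffold proteins. The enzymes fall into class I and class II by the fold of their catalytic domain. Many cytosolic synthetase genes are known targets of ATF4, a transcription factor made when amino acids run short.

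The Mov10 KO libraries held 1118345 to 1352517 reads and the WT libraries 2260348 to 2499634, so depth and genotype went together. A floor of 3 reads was 4.02 to 4.85 normalized reads in Mov10 KO libraries and 1.84 to 2.04 in WT libraries, for counting error only. The targeted gene Mov10 had 51.0, 89.0 and 46.3 normalized reads in Mov10 KO libraries and 110.4, 106 and 104 in WT libraries, with a limma adjusted p of 0.0598: lower in each Mov10 KO library than in WT, but not absent. Kit, which defines the gate, had 1085 to 1156 normalized reads in Mov10 KO libraries and 1083 to 1115 in WT libraries. Normalized reads are the reads of a gene after each library was divided by its own size factor. Footprints rise with mRNA abundance as well as with translation, and mRNA levels are not analysed here. In such bulk samples, fewer cells of a type and less RNA per cell cannot be told apart.

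Short stretches of promoter are shown first, because some genes of this family are known to carry C/EBP-ATF response elements, the sites that ATF4 binds. Promoters were those of RefSeq on GRCm38.p6, from 250 bases before to 50 after each start site, and 28 of the 38 genes matched, 14 of each compartment. The cytosolic genes Nars, Vars, Lars, Rars, Hars, Cars and Wars had no matched promoter and were not searched. The C/EBP-ATF response element, searched as TGATGNAA on both strands, lay in 5 of the 14 cytosolic promoters and in 0 of the 14 mitochondrial ones, against 3.97% of 32851 promoters. The 5 were Aars, Gars, Iars, Tars and Yars. The form TGATGCAA, a subset of the same matches, lay in 4 of the 14 cytosolic promoters, in 0 of the 14 mitochondrial ones and in 0.895% of all promoters. For 4 of these genes the 30-base window around the match is given 5′ to 3′ on the strand of its gene, and capitals mark the match, which reads as the reverse complement in every window but that of Yars. The windows are, in order, chr6:55037960-55037989 for Gars (plus strand), chr13:49682126-49682155 for Iars (plus), chr15:11399655-11399684 for Tars (minus) and chr4:129189895-129189924 for Yars (plus).
Gars: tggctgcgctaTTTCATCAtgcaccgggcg
Iars: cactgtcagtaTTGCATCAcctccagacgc
Tars: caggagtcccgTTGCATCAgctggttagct
Yars: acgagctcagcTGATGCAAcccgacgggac

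Of the 5 genes with a match, 4 were called higher in Mov10 KO cells, as were 8 of the 9 cytosolic genes whose promoter held no match. At the same limma adjusted p under 0.05, 10.3% of all 17114 genes tested were called higher. Among genes averaging 50 or more normalized reads, 24.3% were. The E-box CACGTG lay in 4 cytosolic promoters, 1 mitochondrial promoter and 7.15% of all promoters. The element of the factor NRF1 lay in 3 cytosolic promoters, 2 mitochondrial promoters and 4.60% of all promoters. No match of one of these elements overlapped a match of another. The 150 bases before the start site follow for Qars, a gene with one of the largest differences, and for Vars2 and Nars2, the 2 mitochondrial genes that were called. They lie at chr9:108507855-108508004 (plus strand), chr17:35667593-35667742 (minus) and chr7:96951377-96951526 (plus).
Qars: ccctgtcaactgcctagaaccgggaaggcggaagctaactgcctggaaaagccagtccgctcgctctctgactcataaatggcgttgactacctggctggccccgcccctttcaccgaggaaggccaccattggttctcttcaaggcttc
Vars2: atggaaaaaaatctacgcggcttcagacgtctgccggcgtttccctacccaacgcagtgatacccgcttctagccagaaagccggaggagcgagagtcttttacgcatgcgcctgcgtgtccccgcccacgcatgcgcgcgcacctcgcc
Nars2: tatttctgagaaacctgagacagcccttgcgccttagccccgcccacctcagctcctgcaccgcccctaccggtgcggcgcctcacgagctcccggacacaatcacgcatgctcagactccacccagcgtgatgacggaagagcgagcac

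These stretches hold none of the 3 elements, which says only that these letters are absent from those bases.

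In the comparison of Mov10 KO with WT cells most cytosolic genes were called higher, while most mitochondrial genes were not called. The difference between the compartments was described and not tested. Of the 21 cytosolic genes, 16 had more footprints in Mov10 KO cells, 1 had fewer and 4 were not called. Of the 17 mitochondrial genes, 1 had more, 1 had fewer and 15 were not called. Calls are at a Benjamini-Hochberg adjusted p under 0.05 over 17114 genes from limma, which called 10.3% of all genes higher and 10.9% lower. The median log2 fold change, Mov10 KO over WT, was 0.72 for the cytosolic genes, -0.13 for the mitochondrial genes and -0.17 for all genes tested. Over the other settings the cytosolic median stood 0.51 to 1.02 above that of all genes, while the mitochondrial median lay between 0.30 below it and 0.18 above it. Leaving out WT replicate 1, 2 or 3 reduced the synthetases called higher to 10, 9 and 10, and those called lower to 0 each time, while all genes called went to 1449, 1284 and 1239 from 3628. Without Mov10 KO replicate 3, 1 synthetase was called lower.

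**Figure D1:**
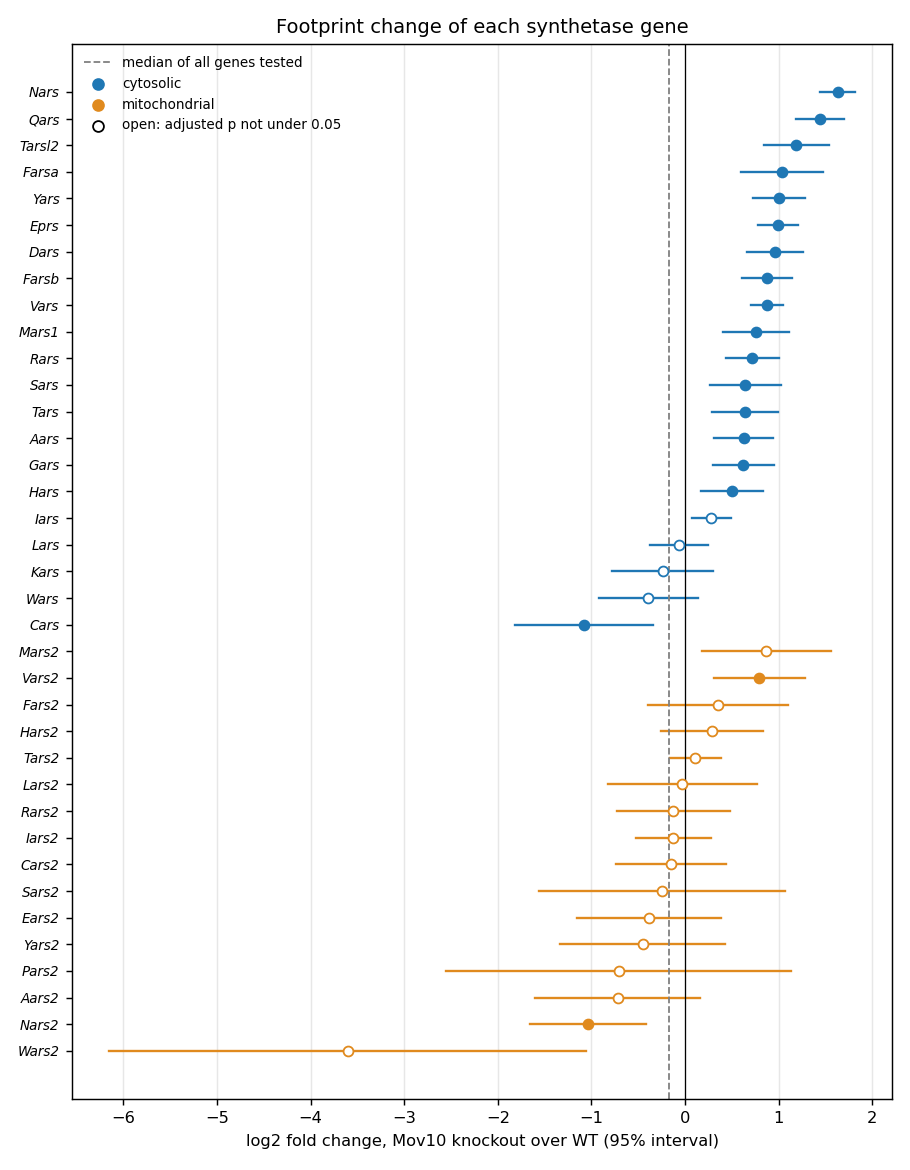
Points are log2 fold changes, Mov10 KO over WT, of the synthetase genes, 1 mitochondrial gene not drawn, with 95% intervals from limma; filled points passed an adjusted p of 0.05, and the dashed line is the median of all genes tested, -0.17. The cytosolic genes run from 1.63 for Nars to -1.08 for Cars, and the mitochondrial genes from 0.87 for Mars2 to -3.61 for Wars2.

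Nars, the asparaginyl enzyme on chr18:64632718-64649723 (GRCm39, as are all gene positions), differed most. It had 1749, 1713 and 1835 normalized reads in Mov10 KO libraries and 606, 519 and 587 in WT libraries. Every Mov10 KO library was above every WT library with a wide gap, and both groups varied little. The means were 1765 ± 62.6 in Mov10 KO and 571 ± 46.1 in WT (SD, n = 3 each), a 3.09-fold difference, with a log2 fold change of 1.63 (SE 0.08) and a limma adjusted p of 9.84e-06. Per kilobase of gene model, Nars was the first of the 38 in Mov10 KO libraries, at 405 normalized reads, and the second in WT libraries, at 131. Vars, the valyl enzyme on chr17:35219963-35235298, which associates with elongation factor 1, came second in Mov10 KO libraries at 313 per kilobase and first in WT libraries at 170.4. Its normalized reads were 1648, 1799 and 1816 in Mov10 KO libraries and 962, 1012 and 893 in WT libraries. This was a narrower gap than that of Nars, again with no overlap, at 1.84-fold (log2 0.88, SE 0.08, limma adjusted p of 0.000136). All genes at the level of Nars and Vars, 1000 to 1778.3 normalized reads, had a median log2 fold change of 0.65.

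The enzymes of the multisynthetase complex were Eprs, Iars, Lars, Mars1, Qars, Rars, Kars and Dars. Of these 8, 5 rose and 0 fell, with a median log2 fold change of 0.74. Of the 13 other cytosolic genes 11 rose and 1 fell, with a median of 0.64. Limma called 10.3% of all genes higher and 10.9% lower, with a median of -0.17. Among the 6307 genes averaging 50 or more normalized reads it called 24.3% higher and 18.4% lower, with a median of 0.01. Qars, the glutaminyl enzyme on chr9:108384905-108393140, had 1007, 909 and 1009 normalized reads in Mov10 KO libraries and 414, 323 and 343 in WT libraries. That is 2.71-fold with no overlap between the groups (log2 1.44, SE 0.11, limma adjusted p of 8.16e-05). Eprs, the double enzyme for glutamate and proline on chr1:185095241-185160557, had 1269, 1580.3 and 1363 normalized reads in Mov10 KO libraries and 734, 674 and 693 in WT libraries. Its 2.00-fold difference was larger than the spread in either group (log2 1.00, SE 0.09, limma adjusted p of 0.000228). Dars, which loads aspartate, had 361, 378 and 419.6 normalized reads in Mov10 KO libraries and 218, 202 and 175 in WT libraries (log2 0.96, SE 0.13, adjusted p of 0.00158). Both groups were tight and far apart.

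Mars1, which loads methionine on the initiator as well as the elongator transfer RNA, had 283, 353 and 245 normalized reads in Mov10 KO libraries and 169, 169 and 174 in WT libraries. Its WT values were nearly equal and its Mov10 KO values were spread, and the log2 fold change was 0.76 (SE 0.15, limma adjusted p of 0.0112). Mars1 overlaps Ddit3 on the opposite strand over 68 bases, and the sources used here do not say whether strand was used in counting. Rars, which loads arginine, had 333, 406 and 356 normalized reads in Mov10 KO libraries and 239.6, 211 and 213 in WT libraries (log2 0.72, SE 0.12, limma adjusted p of 0.00547). The lowest Mov10 KO library was well above the highest WT library.

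The remaining members of the complex, Iars, Lars and Kars, did not pass the test. Iars, the isoleucyl enzyme, had 447, 451 and 485 normalized reads in Mov10 KO libraries and 388, 369 and 380.2 in WT libraries, with a log2 fold change of 0.28 (95% interval 0.07 to 0.49) and a limma adjusted p of 0.0628. Its groups did not overlap, and it was called under 4 of the alternatives. Iars shares 133 bases with the small nucleolar RNA gene Gm25394 on the same strand, which had a mean of 81.2 normalized reads. Lars, the leucyl enzyme, which also senses leucine for the mTORC1 kinase, had 601, 425 and 479 normalized reads in Mov10 KO libraries and 545, 481 and 534 in WT libraries. The 95% interval of its log2 fold change, -0.37 to 0.24, spans 0 and ends below the 0.50 of Hars, the smallest rise among the genes called higher. The interval of Hars, 0.17 to 0.83, overlaps that of Lars, and the difference between these genes was not tested. Kars, the lysyl enzyme, had 114, 225 and 145 normalized reads in Mov10 KO libraries and 192, 186 and 172 in WT libraries, with overlapping groups (log2 -0.24, interval -0.78 to 0.30, limma adjusted p of 0.514).

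Among the enzymes outside the complex, Farsa and Farsb encode the alpha and beta subunits of the phenylalanyl enzyme, which works as a tetramer of both. Farsa had 373, 348 and 589 normalized reads in Mov10 KO libraries and 207, 202 and 209 in WT libraries, a 2.12-fold difference (log2 1.04, SE 0.19, limma adjusted p of 0.00732). Farsb had 392, 361 and 439.9 normalized reads in Mov10 KO libraries and 219, 214 and 213 in WT libraries, a 1.85-fold difference (log2 0.88, SE 0.12, limma adjusted p of 0.00148). The ratio of Farsa to Farsb reads was 0.952, 0.964 and 1.34 in Mov10 KO libraries and 0.947, 0.945 and 0.978 in WT libraries, so that Mov10 KO replicate 3 stood out through Farsa. Per kilobase, Farsb was the third of the 38 genes in Mov10 KO libraries, at 152 normalized reads. Without WT replicate 2, Farsa had an adjusted p of 0.0504.

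Tarsl2 encodes a second cytosolic threonyl enzyme beside Tars. It had 302, 239 and 240.2 normalized reads in Mov10 KO libraries and 105, 114 and 121 in WT libraries, which is 2.30-fold (log2 1.19, SE 0.15, limma adjusted p of 0.00128). Tars had 224, 191 and 252 normalized reads in Mov10 KO libraries and 147, 148 and 131 in WT libraries, which is 1.57-fold (log2 0.64, SE 0.15, limma adjusted p of 0.0211). Both threonyl genes thus rose with no overlap, and whether their rises differ was not tested. Tarsl2 shares 923 bases with Tm2d3 on the same strand, a gene with a mean of 29.9 normalized reads. Yars, the tyrosyl enzyme, had 463, 453 and 577 normalized reads in Mov10 KO libraries and 251, 251 and 238 in WT libraries (log2 1.00, SE 0.12, limma adjusted p of 0.000964). Each Mov10 KO value was far above the WT values.

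The other 4 genes that rose were Sars, Aars, Gars and Hars, with log2 fold changes of 0.50 to 0.64. Aars, the alanyl enzyme, had 535, 474 and 386 normalized reads in Mov10 KO libraries and 323, 281 and 293 in WT libraries (log2 0.62, SE 0.14, limma adjusted p of 0.0149). Gars, the glycyl enzyme of both compartments, had 316, 451 and 399 in Mov10 KO libraries and 248, 242 and 259 in WT libraries (log2 0.62, SE 0.14, limma adjusted p of 0.0178). In both genes the WT libraries lay close together and the Mov10 KO libraries were spread above them. Sars, the seryl enzyme, had 209, 167 and 226 normalized reads in Mov10 KO libraries and 129.8, 115 and 137 in WT libraries (log2 0.64, SE 0.17, limma adjusted p of 0.0283). Hars, the histidyl enzyme, had 189, 225 and 185 in Mov10 KO libraries and 145, 143 and 134 in WT libraries (log2 0.50, SE 0.14, limma adjusted p of 0.0410). Hars lies head to head with Hars2 and overlaps it over 198 bases on the opposite strand. Without any one WT library the calls of Aars, Gars, Hars, Mars1, Sars and Tars were lost, and that of Hars also without Mov10 KO replicate 2. Of the 17 alternatives, Hars was called in 6, Aars, Gars and Sars in 11 each, Tars in 12 and Mars1 in 13.

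Cars, the cysteinyl enzyme on chr7:143110967-143153827, was the one cytosolic gene that fell. It had 32.2, 79.3 and 50.6 normalized reads in Mov10 KO libraries and 106, 122 and 98.8 in WT libraries, about one log2 unit lower at -1.08 (SE 0.32, limma adjusted p of 0.0452). Its groups did not overlap, but the Mov10 KO libraries were widely spread. It was called in 6 of the 17 alternatives, and the call was lost without Mov10 KO replicate 1 or 3 or without any one WT library, with adjusted p up to 0.192. Wars, the tryptophanyl enzyme, which interferon gamma induces, had 91.2, 64.7 and 78.1 normalized reads in Mov10 KO libraries and 108, 80.4 and 121 in WT libraries. Those groups overlapped and the gene was not called (log2 -0.39, interval -0.92 to 0.14, limma adjusted p of 0.274).

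By class, 6 of the 10 cytosolic class I genes rose and Cars fell, and 10 of the 11 class II genes rose. Eprs was counted once, in class I. The shares called by limma were 10.3% higher and 10.9% lower over all genes. They were 24.3% higher and 18.4% lower over genes averaging 50 or more normalized reads. Of the 21 cytosolic genes, 17 had every Mov10 KO library above every WT library and 1 had every Mov10 KO library below, where 16.9% and 22.9% of all genes tested did. Mitochondrial genes did so in 2 and 3 of 17 cases.

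**Figure D2:**
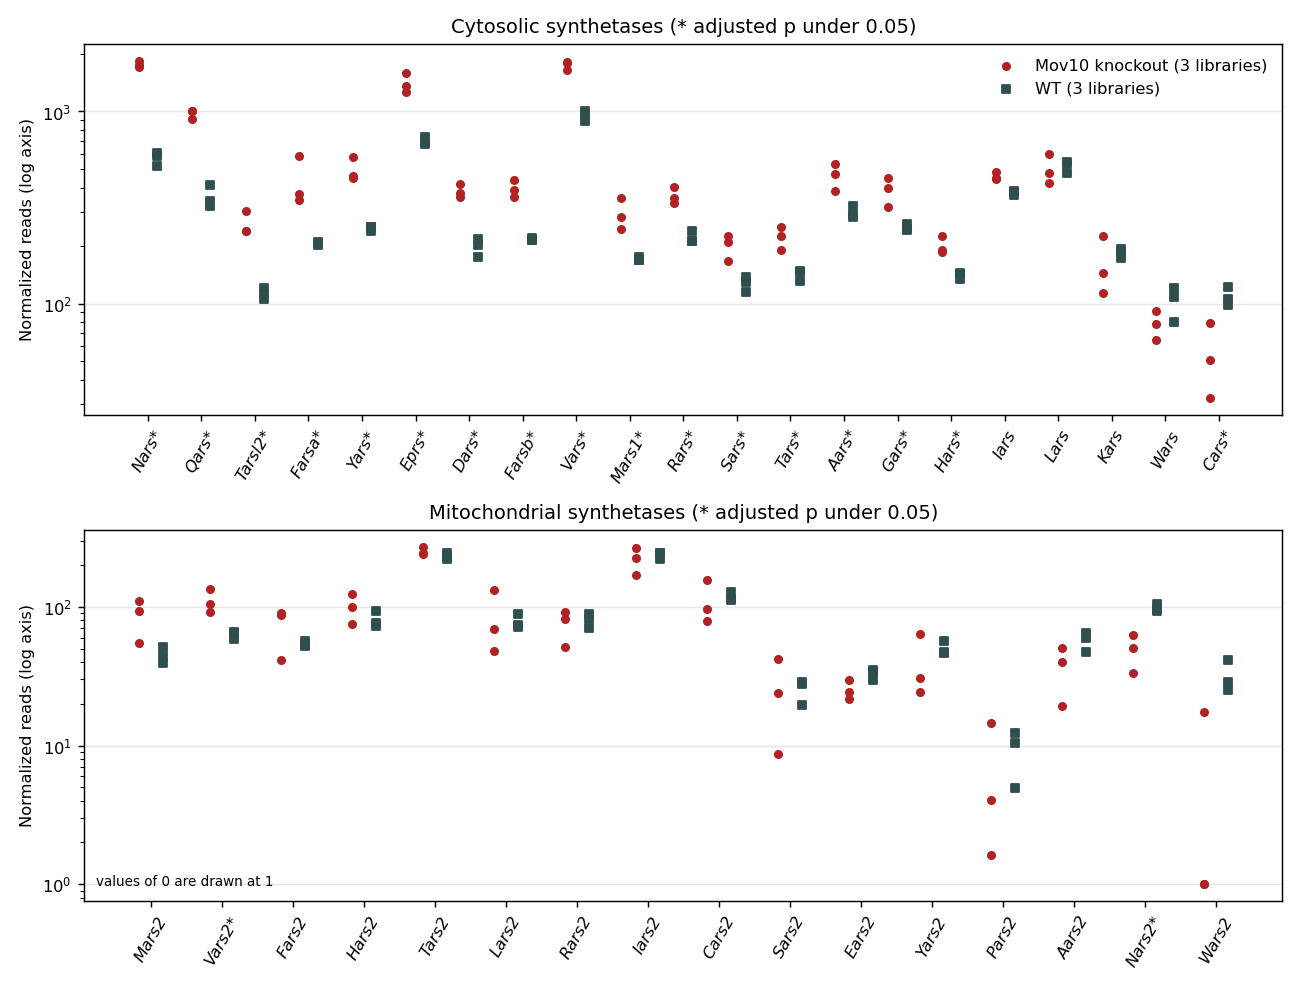
Each point is 1 library's normalized reads (log axis) for a synthetase gene, Mov10 KO left of WT, with cytosolic genes above and mitochondrial genes below; an asterisk marks an adjusted p under 0.05 and values of 0 are drawn at 1. Among cytosolic genes the Mov10 KO points lie above the WT points in 17 of 21, and among mitochondrial genes in 2 of 17, of which 1 is not drawn.

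The mitochondrial enzymes serve the small set of proteins that mitochondria make themselves, which are parts of the respiratory chain and ATP synthase. Vars2, the mitochondrial valyl enzyme on chr17:35966526-35978484, rose: it had 105, 92.2 and 135 normalized reads in Mov10 KO libraries and 63.6, 65.7 and 58.6 in WT libraries. The groups did not overlap, and the difference was 1.76-fold (log2 0.79, SE 0.21, limma adjusted p of 0.0324). Nars2, the mitochondrial asparaginyl enzyme on chr7:96600712-96713965, fell: it had 33.5, 63.1 and 50.6 normalized reads in Mov10 KO libraries and 97.4, 106 and 93.4 in WT libraries. Its log2 fold change was -1.04 (SE 0.27, limma adjusted p of 0.0285), opposite to that of its cytosolic partner Nars. Vars2 was called in 9 of the 17 alternatives and Nars2 in 11. Both calls were lost without any one WT library, with adjusted p up to 0.133 for Vars2 and 0.137 for Nars2.

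The mitochondrial genes with the highest and the lowest signed log2 fold change, Mars2 and Wars2, were not called. Mars2, for methionine, had 93.9, 110.0 and 55.0 normalized reads in Mov10 KO libraries and 39.6, 51.6 and 44.3 in WT libraries (log2 0.87, SE 0.30, limma adjusted p of 0.0765). Wars2, for tryptophan, had 13, 0 and 0 reads in Mov10 KO libraries and 64, 47 and 37 in WT libraries, which is 17.4, 0 and 0 normalized reads against 41.6, 28.8 and 25.2. In both genes the groups did not overlap. For Wars2 the log2 fold change on the log2(value + 1) scale was -3.61 (SE 1.12) with an adjusted p of 0.0511, and its values rest on a single Mov10 KO library with reads.

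Several other mitochondrial genes had log2 fold changes near 0. Tars2, for threonine, had 240.0, 272 and 245 normalized reads in Mov10 KO libraries and 231, 247 and 222 in WT libraries. Its 95% interval of log2 fold change, -0.16 to 0.38, ends below the 0.64 and 1.19 of Tars and Tarsl2. The interval of Tars, 0.29 to 0.99, overlaps it and that of Tarsl2, 0.84 to 1.54, does not. Differences between these genes were not tested. Rars2, for arginine, had 92.5, 51.8 and 82.5 in Mov10 KO libraries and 81.8, 70.6 and 89.3 in WT libraries (log2 -0.13, interval -0.73 to 0.48). Cars2, for cysteine, had 79.1, 157 and 96.9 in Mov10 KO libraries and 114, 129 and 113 in WT libraries (log2 -0.15, interval -0.74 to 0.43), and overlaps Naxd over 984 bases on the opposite strand. The Mov10 KO values of Rars2 and Cars2 spread around the WT values. Iars2, for isoleucine, overlaps Rab3gap2 over 2034 bases and had 169 to 267 normalized reads in Mov10 KO libraries and 222 to 245 in WT libraries. Lars2, for leucine, had 48.5 to 133 in Mov10 KO libraries and 71.5 to 89.6 in WT libraries, the Mov10 KO libraries again lying on either side of WT.

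Fars2 and Hars2, for phenylalanine and histidine, had log2 fold changes of 0.35 and 0.29 that did not pass the test. Fars2 had 41.6, 90.6 and 88.3 normalized reads in Mov10 KO libraries and 57.1, 52.2 and 53.1 in WT libraries, and Hars2 had 125, 100.3 and 75.2 in Mov10 KO libraries and 92.8, 76.1 and 72.9 in WT libraries. In each the groups overlapped, with 2 Mov10 KO libraries above all of WT. Aars2, for alanine, had 40.2, 19.4 and 50.6 normalized reads in Mov10 KO libraries and 59.7, 47.3 and 65.4 in WT libraries (log2 -0.72, interval -1.60 to 0.16). Yars2, for tyrosine, had 30.8, 24.3 and 63.7 in Mov10 KO libraries and 56.5, 46.6 and 47.7 in WT libraries (log2 -0.45, interval -1.33 to 0.43). Both intervals are wide and span 0.

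The genes with the fewest reads give the least firm values. Ears2, for glutamate, had 29.5, 24.3 and 21.7 normalized reads in Mov10 KO libraries and 33.8, 35.0 and 30.0 in WT libraries. Mov10 KO was below WT throughout, with a limma adjusted p of 0.463. Ears2 overlaps Ubfd1 over 89 bases on the opposite strand, a gene with a mean of 144 normalized reads against 29.0 for Ears2. Sars2, for serine, had 24.1, 42.1 and 8.68 in Mov10 KO libraries and 19.5, 27.6 and 28.6 in WT libraries. Pars2, for proline, had 4.02, 1.62 and 14.5 in Mov10 KO libraries and 10.4, 4.91 and 12.3 in WT libraries, with Mov10 KO replicates 1 and 2 at or below the floor of 3 reads. The 95% intervals of log2 fold change, -1.56 to 1.07 for Sars2 and -2.56 to 1.14 for Pars2, leave room for sizeable differences in either direction. The median synthetase gene had 39.0 reads per library in Mov10 KO and 88.0 in WT among mitochondrial genes, and 263 in Mov10 KO and 336 in WT among cytosolic genes. The median coefficient of variation was 36.7% in Mov10 KO and 11.0% in WT for mitochondrial genes, and 13.7% in Mov10 KO and 6.67% in WT for cytosolic genes, so the mitochondrial values are the less precise ones.

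Setting the cytosolic and mitochondrial enzyme for the same amino acid side by side gave 19 pairs. Eprs, Fars2 and Tars2 each stand in more than 1 pair, so the pairs are not all distinct. In 16 of the 19 pairs the log2 fold change of the cytosolic gene was the higher, with a median difference of 0.69 over all pairs. The largest differences were 3.21 for Wars and Wars2, which rests on the near absence of Wars2 reads in Mov10 KO, and 2.67 for Nars and Nars2. In Nars over Nars2 the ratio of reads was 52.2, 27.2 and 36.2 in Mov10 KO libraries and 6.23, 4.91 and 6.28 in WT libraries. The exceptions were Cars with Cars2 at -0.93, Mars1 with Mars2 at -0.11 and Lars with Lars2 at -0.03. Vars and Vars2 moved almost alike, with a difference of 0.08. Genes are not replicates, and these pair differences have no test here.

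**Figure D3:**
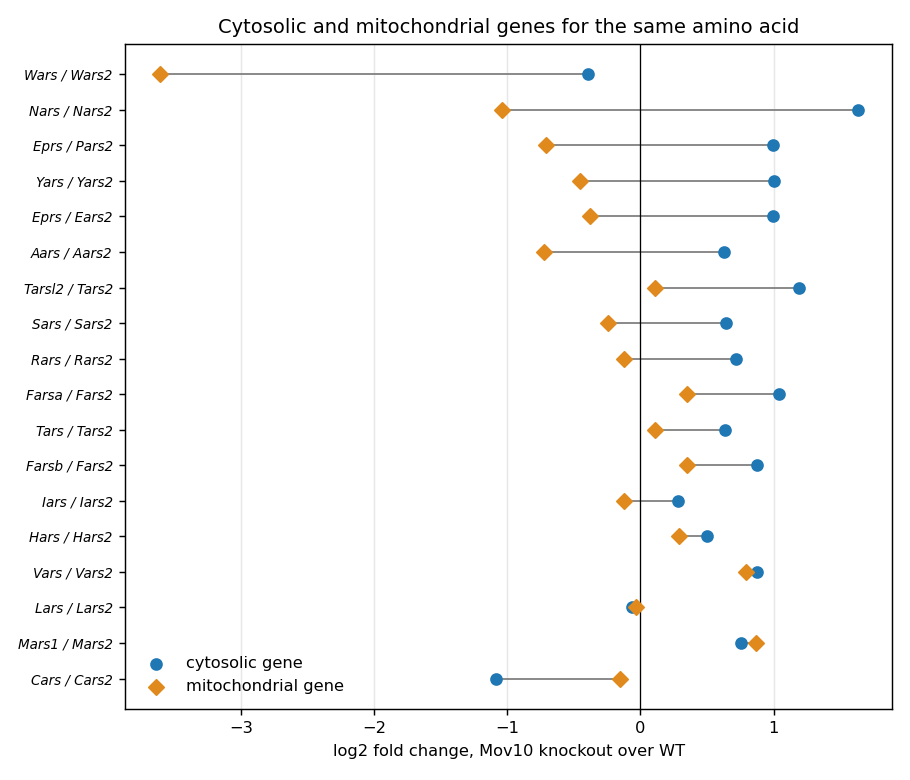
Each line joins the log2 fold changes, Mov10 KO over WT, of the cytosolic (circle) and mitochondrial (diamond) gene for 1 amino acid, with 1 of the 19 pairs not drawn. The cytosolic gene had the higher value in 16 of the 19, and Cars with Cars2 lies farthest the other way, at -0.93.

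Summed over each compartment, the cytosolic genes had 10936, 11292 and 11575 normalized reads in Mov10 KO libraries and 6456, 6057 and 6119.6 in WT libraries, a 1.81-fold difference of means. The mitochondrial genes summed to 1297, 1412 and 1385 in Mov10 KO libraries and 1368, 1342 and 1323 in WT libraries, a 1.02-fold difference with overlapping groups. A single scaling factor per library cancels in the ratio of the 2 sums, but a trend of fold change with level does not. This ratio was 8.43, 8.0 and 8.36 in Mov10 KO libraries and 4.72, 4.51 and 4.62 in WT libraries. It was thus 1.79-fold higher in Mov10 KO libraries, with tight groups far apart. Nars, Vars and Eprs are the largest contributors, and without them the ratio was 4.84, 4.39 and 4.74 in Mov10 KO libraries and 3.04, 2.87 and 2.98 in WT libraries, which is 1.57-fold. As a share of all reads, the cytosolic genes took 0.603%, 0.624% and 0.636% in Mov10 KO libraries and 0.413%, 0.395% and 0.397% in WT libraries. The mitochondrial genes took 0.0715%, 0.0781% and 0.0761% in Mov10 KO libraries and 0.0875%, 0.0875% and 0.0859% in WT libraries, so that on this scale their share was lower in each Mov10 KO library.

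**Figure D4:**
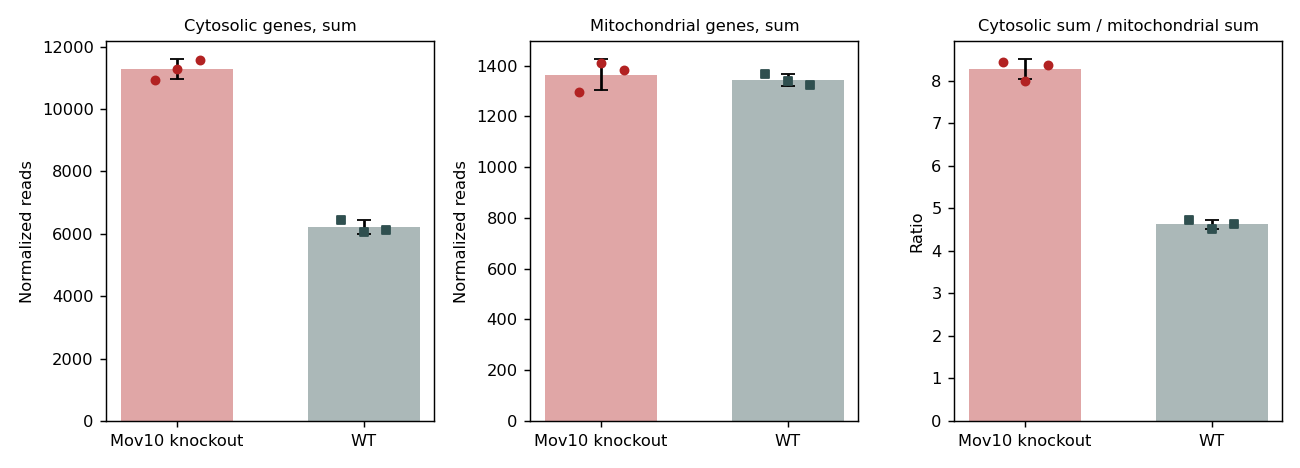
Points are the 6 libraries and bars with error bars their group mean ± SD (n = 3 each), Mov10 KO left of WT: the summed normalized reads of the 21 cytosolic genes, those of the 17 mitochondrial genes, and the ratio of the 2 sums, on axes that start at 0. The cytosolic sums and the ratio separate the groups, at 8.0 to 8.43 in Mov10 KO against 4.51 to 4.72 in WT for the ratio, and the mitochondrial sums overlap.

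Fold changes in these libraries moved with the level of a gene. The median log2 fold change of all genes was -0.59 between 5.6 and 10 normalized reads and 0.65 in the step centred on 1334 normalized reads. Cytosolic synthetases are the more abundant ones, so each gene was also set against the median of all genes in its own step of level, a description chosen after the values were seen. Of the cytosolic genes, 17 of 21 lay above the median of their step, with a median difference of 0.58. Among these cytosolic genes the difference was 0.98 for Nars, 0.35 for Eprs, 0.23 for Vars and 0.03 for Iars. Of the mitochondrial genes 10 of 17 lay above the median of their step, with a median difference of 0.05. Among the 6307 genes averaging 50 or more normalized reads, limma called 24.3% higher and 18.4% lower. At that level 17 of 21 cytosolic genes were called higher and 1 lower, and 2 of 11 mitochondrial genes higher and 1 lower. The part of the level in the cytosolic result was not tested beyond this.

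**Figure D5:**
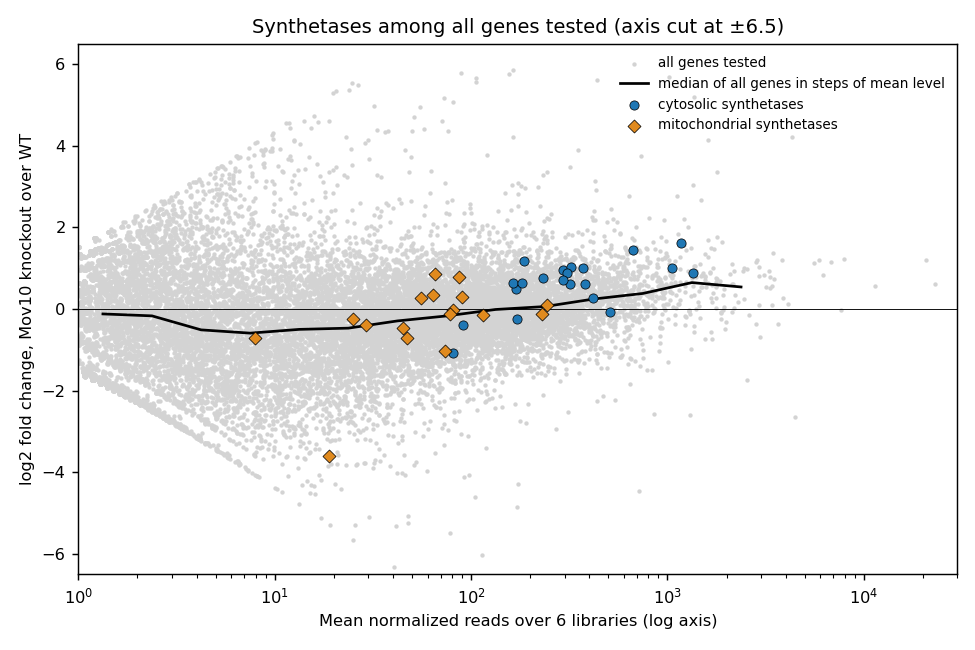
The log2 fold change, Mov10 KO over WT, is plotted against mean normalized reads over the 6 libraries (log axis) for all genes tested (grey), cytosolic synthetases (circles) and mitochondrial synthetases (diamonds); the line is the median of all genes in steps of level. The circles lie above the line in 17 of 21 cases and the diamonds in 10 of 17.

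Other steps of tRNA charging were counted in the same fit, which called 10.3% of all genes higher and 10.9% lower. These groups hold few genes, and none was tested as a set. Of the 3 scaffold proteins of the multisynthetase complex, Aimp1 rose, with 153, 291 and 253 normalized reads in Mov10 KO libraries and 123, 129 and 136 in WT libraries (log2 0.79, SE 0.23, limma adjusted p of 0.0444). Eef1e1 had 84.5, 82.5 and 86.8 in Mov10 KO libraries and 49.3, 63.2 and 64.7 in WT libraries without passing the test (limma adjusted p of 0.124), and Aimp2 had 5.36, 37.2 and 37.6 in Mov10 KO libraries and 41.6, 44.8 and 36.8 in WT libraries. Of the 8 factors that deliver charged transfer RNA to the ribosome, 2 rose and 2 fell. Eef1a1, the cytosolic elongation factor, had 2539.9, 2667 and 2836 in Mov10 KO libraries and 1587, 1404 and 1411 in WT libraries (log2 0.87, SE 0.07, limma adjusted p of 0.000113), a rise of the size seen in Vars. Tsfm, the exchange factor of the mitochondrial elongation factor, rose as well, with 172, 139 and 101 in Mov10 KO libraries and 57.8, 74.9 and 56.6 in WT libraries (log2 1.09, limma adjusted p of 0.0160).

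Tufm, that mitochondrial elongation factor itself, fell. It had 1, 1 and 0 reads in Mov10 KO libraries and 62, 40 and 52 in WT libraries, a ratio of Mov10 KO over WT of 0.0293 with an exact 95% counting interval of 0.00352 to 0.108 and a limma adjusted p of 0.00349. Eef1a2, the elongation factor form of muscle and neurons, was also called lower (limma adjusted p of 0.0465), but had 0 reads in each Mov10 KO library and 5, 2 and 8 in WT libraries, near the floor. Tsfm and Tufm, which work together, thus differed in opposite directions. Of 7 genes that proofread or recycle transfer RNA, Dtd1, which removes D-amino acids, rose, with 88.5, 56.6 and 73.8 normalized reads in Mov10 KO libraries and 34.4, 39.9 and 32.7 in WT libraries (log2 0.99, limma adjusted p of 0.0344). Of the 4 genes that make mitochondrial glutaminyl and initiator transfer RNA (Gatb, Gatc, Qrsl1, Mtfmt) and the 4 of selenocysteine (Pstk, Sepsecs, Sephs2, Secisbp2), 0 were called by limma.

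Of 17 genes of the response to amino acid shortage that were tested, 3 rose and 3 fell, with a median log2 fold change of -0.06, beside 10.3% higher and 10.9% lower among all genes. Atf4, the transcription factor itself, had 228, 289.5 and 165 normalized reads in Mov10 KO libraries and 208, 231 and 218 in WT libraries (log2 0.02, interval -0.44 to 0.47), and Asns, the asparagine synthetase gene it is known to induce, had 87.2, 118 and 182 in Mov10 KO libraries and 101, 97.0 and 88.6 in WT libraries (limma adjusted p of 0.370). Neither was called. Those that rose were Slc7a11 and Slc3a2, a cystine transporter and the chain it pairs with, at log2 1.51 and 0.80, and Gcn1, which activates the kinase GCN2 at stalled ribosomes, at log2 0.61. Those that fell were Slc7a5, a leucine transporter, at log2 -0.58, the transcription factor Cebpb at -1.43 and Eif2ak4, which encodes GCN2, at -0.86. Trib3 was below the filter on low values.

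Markers of other cell types moved with genotype beside the synthetases, in a fit that called 10.3% of all genes higher and 10.9% lower. All 6 erythroid markers rose, and their sum was 5343 to 5967 normalized reads in Mov10 KO libraries and 3126 to 3188 in WT libraries. Of 7 B cell markers 3 rose, with sums of 436 to 444 in Mov10 KO libraries and 216 to 223 in WT libraries. Of 6 neutrophil markers 1 rose and 3 fell, with sums of 6524 to 7111 in Mov10 KO libraries and 9209 to 10203 in WT libraries. Those that fell were S100a8, at a mean of 371 in Mov10 KO and 2246 in WT, Ngp, at 1259 and 2099, and Mmp8, at 52.6 and 187.9. S100a9 rose, at a mean of 2652 in Mov10 KO and 2250 in WT, and Ltf and Ly6g were not called. Of 4 megakaryocyte markers 1 rose, of 5 T and NK cell markers 1 fell, of 5 monocyte and macrophage markers 0 were called, and of 3 stromal markers tested 1 rose and 1 fell. Of 5 progenitor markers Myb rose and 0 fell. Their sums were 3548 to 4073 in Mov10 KO libraries and 3364 to 3424 in WT libraries, higher in each Mov10 KO library. Myb was the largest part of these sums, at 2215 to 2619 in Mov10 KO libraries and 1907 to 1967 in WT libraries. Kit had a log2 fold change of 0.03, and Cd34, Flt3 and Gata2 had -0.46, -0.40 and -0.20, all without a call. The sums of the megakaryocyte markers were 571 to 878 normalized reads in Mov10 KO libraries and 464 to 531 in WT libraries, those of the T and NK cell markers 223 to 247 in Mov10 KO libraries and 288 to 349 in WT libraries, and those of the monocyte and macrophage markers 746 to 807 in Mov10 KO libraries and 663 to 727 in WT libraries. The stromal sums were 247 to 357 in Mov10 KO libraries and 213 to 262 in WT libraries. Vpreb1, Pf4 and Klrb1c were at 0 in Mov10 KO replicate 2, and Lepr in 2 libraries of each genotype. The part of this makeup in the synthetase differences was not tested.

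The authors' deposited table, at its own adjusted p under 0.05, had 15 of 21 cytosolic synthetases higher and 1 lower. Of the 17 mitochondrial ones it had 2 higher and 1 lower. The share of all genes called by that test was not counted here, so these counts have no background beside them.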

How the data were processed

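The data were Ribo-seq of 24 to 36 nt footprints from 6 libraries. Per the deposited values, the authors' signal is the reads of a gene over a size factor of the library; reads were recovered by dividing by the value of 1 read in each library, with a tolerance of 0.05. Another 5 genes, which were not whole multiples of their library's step, were left out of the fit. Aligner, counter and annotation: not given in the sources used here; the build is GRCm39, per the submitters' processing notes. The deposited log2 fold changes and p-values are the authors' own, by a test not stated, and only their adjusted p-values were counted.

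The test was limma 3.58.1 (R 4.3.3, lmFit, eBayes with a variance trend), run on log2(value + 1) for every gene averaging 1 or more normalized reads. Genotype was the only term, with Benjamini-Hochberg adjustment. On this scale the fold changes of low or widely spread genes can differ from the ratio of group means, Mov10 KO over WT. Wars2 had a log2 fold change of -3.61 at a ratio of means of 0.182, and Lars2 one of -0.03 at 1.06. Alternatives used edgeR 4.0.16 (quasi-likelihood) and DESeq2 1.42.0 on recovered reads, other scalings, filters, a pseudocount of 0.1, a replicate block, thinning and libraries left out. The limma and edgeR steps were tested on simulated data. Levels per kilobase use the deposited gene length; the plan named protein length, which was not used here. Values in every library were given for called genes, their partners, the most abundant and the most extreme genes, and for others where space allowed. Members and lists were chosen with earlier results of these data known; the motif searches and steps of level were chosen after the values were seen. Motifs were searched in RefSeq promoters (GRCm38.p6). Reads carry no molecular identifiers, so intervals and floors cover counting error only. Values of 1 mitochondrial gene and of 1 promoter are not reported here; the gene is in the counts and sums. Figures used matplotlib 3.10.9 and pandas 2.3.3.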

Additional observations from a re-analysis of the deposited data

How the results depend on the processing

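The fold of the cytosolic over mitochondrial ratio, 1.79, stayed between 1.77 and 1.82 when a library was left out or all were thinned. It was not computed after cyclic loess. Under that setting Nars, Vars and Eprs, the largest contributors, had log2 fold changes of 1.20, 0.39 and 0.57, from 1.63, 0.88 and 1.00. Of the 19 called synthetases, 8 (Dars, Eprs, Farsb, Nars, Qars, Tarsl2, Vars and Yars) were called under all 17 alternatives, and no called gene changed sign in any of them. Synthetases called higher, 17, became 8 without the variance trend, 11 with library totals, 10 at an adjusted p under 0.01 and 9 to 19 with a library left out; the cytosolic 16 became 8, 10 at that threshold and 9 to 17 with a library left out. Synthetases called lower, 2, became 0 after cyclic loess, thinning, no variance trend or an adjusted p under 0.01, 1 with no filter, a pseudocount of 0.1 or upper-quartile scaling, and 0 to 2 with a library left out. All genes called, 3628, became 1427 at an adjusted p under 0.01 and 1239 to 4585 with a library left out. The cytosolic median log2 fold change of 0.72 became 0.57 after cyclic loess, 0.49 with library totals and 0.69 to 0.78 with a library left out. The mitochondrial median of -0.13 became 0.11 at a mean of at least 50, -0.36 with library totals and -0.29 to -0.10 with a library left out, so its sign is not settled. Library totals moved the median of all genes to -0.37 and cyclic loess to 0.00. Replicate numbers do not pair the libraries (correlations of deviations -0.029 to -0.0055); with a replicate block, 15 synthetases were called higher and 3 lower. Few mitochondrial reads limit those genes; the cause of the other changes was not tested.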
